A study of Homo sapiens with 9 samples.

Results

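The comparison described here set 3 Hap1 libraries that expressed the R227Q variant of SARS2 against 3 that expressed wild-type SARS2, which together are 6 of the 9 libraries of the series. The libraries were taken by the genotype in their labels, and the difference was read over all genes with enough counts to test. Hap1 is an established, nearly haploid human cell line. In every library the endogenous SARS2 gene was deleted and a doxycycline-inducible copy carrying a single FLAG tag was present. That inducible copy had been left off for 6 days, so that SARS2 came from a constitutive copy named +int14-myc, either wild type (WT) or R227Q. The labels do not say what int14 is, and they do not say whether replicates were separate cultures or clones. The p-values below therefore rest on how far these particular libraries differ, and that spread may be technical. The 3 remaining libraries carried H448L SARS2 on the same background and enter only where they are named.

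SARS2 encodes the mitochondrial seryl-tRNA synthetase, the enzyme that charges mitochondrial serine tRNAs for translation of the proteins encoded by mitochondrial DNA. When mitochondrial translation is impaired, cells commonly activate the integrated stress response, in which ATF4 drives genes of amino acid supply and secreted stress hormones. Growth programmes such as ribosome building, chaperone synthesis and sterol synthesis are controlled by other pathways that also read nutrient and organelle state.

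The deposited column names carry one of 2 prefixes, SDKYMR and 4LJFHN, which are called submissions below. SDKYMR held WT replicates 1 and 2 and R227Q replicate 1, and 4LJFHN held WT replicate 3, R227Q replicates 2 and 3 and all H448L libraries. The 6 libraries held between 11055106 and 12991050 gene counts, so that 1 count was worth 0.077 to 0.0905 CPM, the count scaled to a library total of 1000000. The submission was a term in the model, because the 2 submissions differed widely: the biological coefficient of variation was 2.96% with that term and 12.7% without it. SARS2 itself was read at 7.70, 8.54 and 6.2 CPM in WT and at 8.68, 8.35 and 7.09 CPM in R227Q. The groups overlapped, and the fitted log2 difference of 0.18 ± 0.12 (SE) did not pass the test (adjusted p = 0.38, by edgeR's quasi-likelihood test with adjustment after Benjamini and Hochberg, as for every adjusted p below). SARS2 exons overlap those of MRPS12 on the opposite strand and of an unnamed gene on the same strand, and the deposited tables give 1 value for SARS2, whichever copy its reads came from. Under 1 CPM in all 6 libraries were 12 of 24 haematopoietic markers (PTPRC, CD34, GATA1 and SPI1 among them), 9 of 16 epithelial (CDH1), 5 of 16 fibroblast (DCN, LUM) and 5 of 16 neuronal or kidney markers (RBFOX3). Other members were expressed. The most abundant were HBZ, GATA2 and HBG2 of the haematopoietic list and CD24, KRT18 and CLDN3 of the epithelial. In the fibroblast list they were VIM, COL1A1 and ZEB1, and in the neuronal or kidney list TUBB3, LHX1 and MAP2. The summed levels of all members overlapped between WT and R227Q in each list.

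Of 16908 genes tested, 1268 were higher in R227Q (7.5%) and 1676 were lower (9.91%) at an adjusted p under 0.05. Most differences were small. By at least 1.5-fold, 371 genes were higher and 120 lower, and by at least 2-fold, 129 were higher and 34 lower. Abundant genes reached the threshold more often: 4.67% of genes under 1 CPM were called, against 38.9% of genes at 100 CPM and over, where the median absolute log2 difference of called genes was 0.19. The calls leaned to lower values among abundant genes and to higher values among rare ones, with 507 lower against 167 higher at 100 CPM and over, and 71 lower against 260 higher between 1 and 5 CPM. CPM values of the 2 groups did not overlap in 3242 genes (19.2% of those tested), of which 1691 were called. Upper-quartile factors turned the split of calls from 43.1% higher to 54% higher, and DESeq2 to 32.7% higher; upper-quartile factors moved the median difference of all genes to 0.025. Without WT replicate 3, the only WT library of its submission, 404 genes were called higher and 689 lower, and without R227Q replicate 1, 534 and 744. The calls held in all 6 fits that left out 1 library numbered 592, of which 404 were lower.

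The 2 submissions share no library, so the R227Q difference can be read in each. In both, one arm is a single library, WT replicate 3 in 4LJFHN and R227Q replicate 1 in SDKYMR, whose spread is assumed to be that of the other libraries fitted; the SDKYMR fit had 1 residual degree of freedom. The calls within a submission are therefore a description. Within 4LJFHN alone, 1138 genes were called (6.51%), and 96.6% of them had the same sign in SDKYMR, namely 460 of 483 higher genes and 639 of 655 lower genes. Within SDKYMR alone, 903 genes were called (5.23%), and 98.1% of them had the same sign in 4LJFHN. These shares are to be read beside all 16908 genes tested, of which 6072 were higher in both submissions and 5577 lower in both. Both fits alone called 493 genes, which were 43.6% of the 4LJFHN calls and 54.8% of the SDKYMR calls, and all 493 had the same sign, 166 higher and 327 lower. Across the 7115 genes at 20 CPM or more the 2 differences correlated with r = 0.742, and across all genes tested with r = 0.456. Both values are descriptions over genes, which are not independent replicates. No gene passed the test for a different R227Q effect in the 2 submissions (0% of tested genes called by edgeR's interaction test and 0 by limma-voom, with 736 genes, 4.35%, at an unadjusted p under 0.05 in edgeR and 761 in limma-voom).

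**Figure D1:**
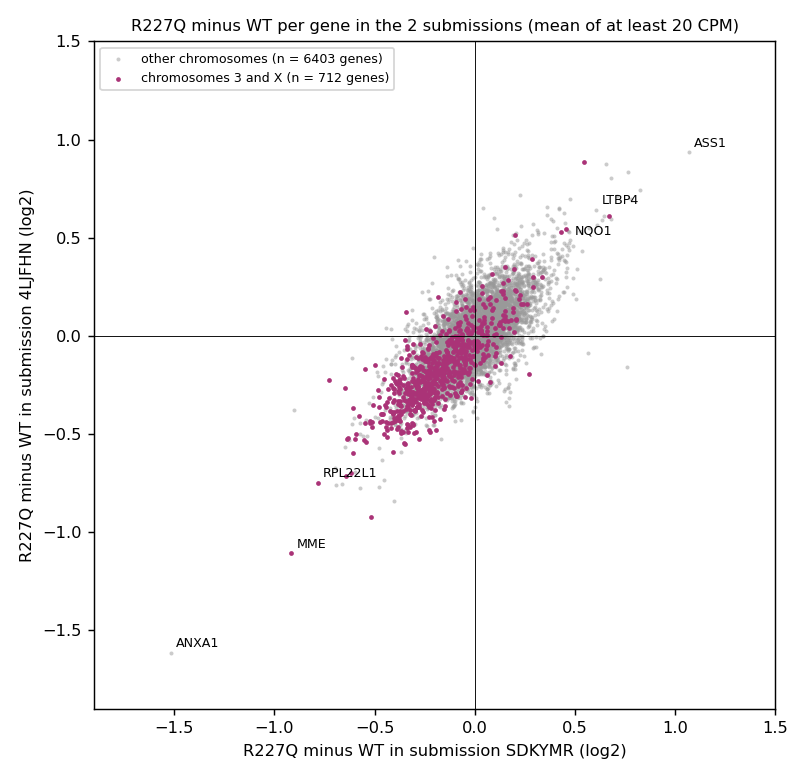
Difference between R227Q and WT of each gene with a mean of at least 20 CPM, on the log2 scale, in submission SDKYMR (horizontal axis) and in submission 4LJFHN (vertical axis). Each point is a gene; the 712 genes of chromosomes 3 and X are coloured, and 553 of them lie below 0 in both submissions, while ANXA1 stands alone at the lower left.

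The lower calls were unevenly placed in the genome. On chromosome 3, 354 of 898 tested genes were lower (39.4%) and 19 higher, with a median log2 difference of -0.20. On chromosome X, 140 of 553 were lower (25.3%) and 27 higher, with a median of -0.09. The 2 chromosomes held 8.58% of the tested genes and 29.5% of the lower calls, and 156 of the 327 genes that were lower in both submissions alone. Of the 494 lower genes on these chromosomes, 190 kept the call whichever library was left out. The other 15457 genes gave 1222 higher and 1182 lower calls, with a median of 0.01.

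The shift ran along the whole of chromosome 3. In windows of 40 neighbouring genes at 10 CPM or more, all 13 windows of chromosome 3 had medians between -0.33 and -0.16. On X only the first 3 windows, up to position 52995472, were as low (-0.33 to -0.22), and the 5 windows beyond lay between -0.10 and -0.02. The 206 windows of all other chromosomes lay between -0.13 and 0.06. Each R227Q library showed the shift: over the genes at 10 CPM or more of chromosome 3, the medians against the WT of the same submission were -0.22, -0.21 and -0.22 in R227Q replicates 1 to 3, and on X they were -0.10, -0.11 and -0.10. The H448L libraries, which share the WT controls, gave fitted medians against WT of -0.21 on chromosome 3 and -0.11 on X, and the direct medians of H448L minus R227Q were 0.03 and 0.02. DNA copy number was not measured, and its part in these differences was not tested. Where leaving out the members on chromosomes 3 and X changes a count of calls in a gene group below, the count outside them is given too.

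**Figure D2:**
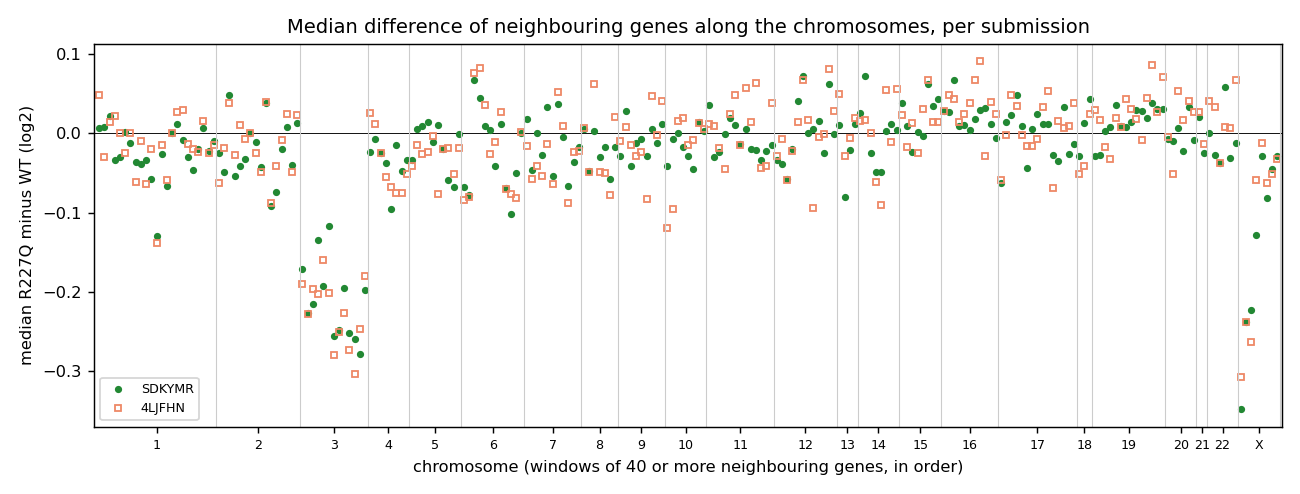
Median log2 difference between R227Q and WT in windows of 40 or more neighbouring genes at 10 CPM or more, in chromosome order; filled circles are submission SDKYMR and open squares 4LJFHN. Windows of chromosome 3 lie between -0.28 and -0.12 in SDKYMR and between -0.30 and -0.16 in 4LJFHN, the first 3 windows of X are as low, and windows elsewhere lie between -0.14 and 0.09 in either submission.

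Among named genes with a mean of at least 5 CPM, the largest rises were led by OLIG1, CRABP1, INHBE and NEUROG2. OLIG1, a helix-loop-helix factor of the oligodendrocyte lineage on chromosome 21 (33070144 to 33072420, GRCh38), was at 1.92, 1.86 and 2.35 CPM in WT and at 6.68, 10.6 and 10.7 CPM in R227Q. All R227Q libraries lay above all WT libraries, and the fitted rise was 3.90-fold (log2 1.97 ± 0.17, adjusted p = 1.9e-09). CRABP1, which binds retinoic acid in the cytosol, was at 6.47, 5.13 and 5.97 CPM in WT and at 20.5, 18.0 and 15.8 CPM in R227Q, a rise of 3.23-fold (log2 1.69 ± 0.12, adjusted p = 4.1e-11). NEUROG2, a proneural factor, was at 4.77, 3.96 and 3.71 CPM in WT and at 12.3, 9.32 and 10.5 CPM in R227Q (log2 1.45 ± 0.13, adjusted p = 3.4e-09). Its exons overlap those of an antisense gene, NEUROG2-AS1, whose reads cannot be told apart without strand. INHBE, an inhibin beta chain, was at 3.62, 3.99 and 5.46 CPM in WT and at 11.7, 14 and 12.9 CPM in R227Q (log2 1.47 ± 0.13, adjusted p = 2.8e-09). For none of these 4 genes did a WT library reach an R227Q library.

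IGF2, RET and HOXB9 were also among the largest rises. IGF2, a fetal growth factor that is imprinted in many tissues, was at 3.29, 2.74 and 3.36 CPM in WT and at 6.72, 8.2 and 9.57 CPM in R227Q, 2.38-fold higher (adjusted p = 7.6e-07). Several genes overlap its exons on the same strand, so its reads are uncertain. RET, the receptor tyrosine kinase of the GDNF ligands, was at 5.62, 6.68 and 5.79 CPM in WT and at 13, 12.3 and 13.2 CPM in R227Q, 2.13-fold higher (adjusted p = 5.4e-08). HOXB9 was at 8.24, 8.46 and 6.69 CPM in WT and at 18.3, 14.1 and 16.7 CPM in R227Q, 2.21-fold higher (adjusted p = 8.4e-09). HOXB9 was the only one of 29 tested HOX genes called higher, and 1, HOXA13, was called lower, a call lost in 5 of the 6 fits without 1 library.

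Enzyme genes were also among them. ASS1, argininosuccinate synthase of the urea cycle and arginine synthesis, was at 46.3, 51.2 and 54.1 CPM in WT and at 102.3, 103.2 and 104.2 CPM in R227Q. That 2-fold rise had the smallest adjusted p of the named rises (7.5e-14). AKR1C1, an aldo-keto reductase, was 2.29-fold higher (log2 1.19 ± 0.12, adjusted p = 1.4e-08), and its close paralogs AKR1C2 and AKR1C3, also called higher but not without R227Q replicate 1, can share reads with it. HPGD, which degrades prostaglandins, rose by 0.96 on the log2 scale, from 7.01, 8.15 and 9.41 CPM to 15.3, 17.1 and 18.3 CPM. Vesicle and synapse genes RAB26, SYT17 and NPTXR rose by 1.01, 0.97 and 0.92, and SOX6, TEX19, TSPAN5, FAM43B and IFITM1 by 0.98, 0.92, 0.89, 0.94 and 1.03. Of these, SOX6 and IFITM1 share exon bases with C11orf58 and IFITM2. The groups did not overlap in any of the 8. The remaining 2 of the 20 largest rises, NR2E3 and PLAAT4, lost their calls without WT replicate 3 and without R227Q replicate 1 respectively.

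**Figure D3:**
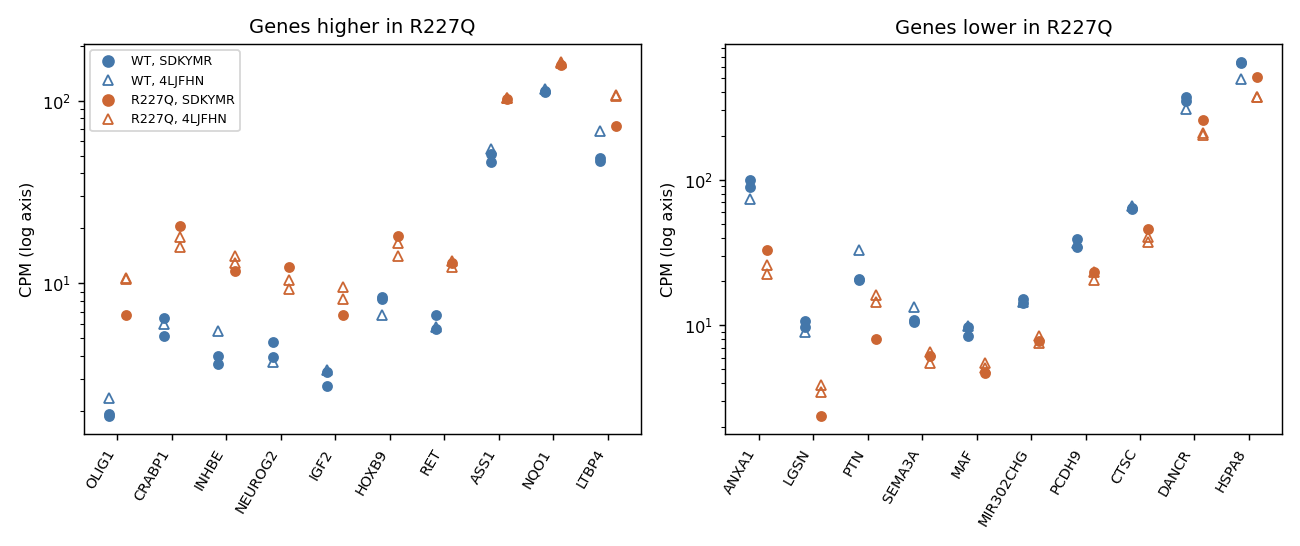
CPM (log axis) of 10 genes that were higher and 10 that were lower in R227Q, with 1 point per library; circles are submission SDKYMR, triangles 4LJFHN. For ANXA1 and CRABP1 every R227Q library lies apart from every WT library, whereas for HSPA8 the R227Q library of SDKYMR lies above the WT library of 4LJFHN and the groups separate only within a submission.

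The largest falls among named genes at the same level of expression were led by LGSN, ANXA1 and PTN. ANXA1, a calcium- and phospholipid-binding annexin on chromosome 9 (73151757 to 73170393), was at 88.7, 99.9 and 74.3 CPM in WT and at 32.8, 26.1 and 22.4 CPM in R227Q. The fall of 2.99-fold (log2 -1.58 ± 0.06) had the smallest adjusted p of all genes tested (9.1e-17). Of 15 tested annexin and S100 genes, ANXA2 and ANXA6 were the only others called, at -0.18 and -0.23, and neither was called without WT replicate 3 or without R227Q replicate 1. LGSN, a glutamine synthetase-like gene, was at 9.70, 10.7 and 8.96 CPM in WT and at 2.36, 3.91 and 3.48 CPM in R227Q (log2 -1.62 ± 0.16, adjusted p = 1.5e-08). PTN, the secreted heparin-binding growth factor pleiotrophin, was at 20.9, 20.4 and 32.9 CPM in WT and at 7.98, 14.4 and 16.1 CPM in R227Q (log2 -1.21 ± 0.09, adjusted p = 1.2e-10). In each of these 3 genes the highest R227Q library lay below the lowest WT library.

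SEMA3A, a secreted axon guidance cue, was at 10.8, 10.6 and 13.4 CPM in WT and at 6.11, 5.51 and 6.56 CPM in R227Q (log2 -1 ± 0.13, adjusted p = 1.3e-06). The transcription factor gene MAF was at 9.78, 8.46 and 9.95 CPM in WT and at 4.73, 5.06 and 5.51 CPM in R227Q (log2 -0.94 ± 0.13). PCDH9, a protocadherin, fell from 39.2, 34.7 and 37 CPM to 23.2, 23.3 and 20.6 CPM (adjusted p = 4.7e-08). PKIB, which encodes an inhibitor of protein kinase A, fell by 0.96 on the log2 scale. MIR302CHG, the host transcript of the miR-302 cluster of pluripotent cells, was at 14.1, 15.1 and 14.4 CPM in WT and at 7.78, 8.39 and 7.53 CPM in R227Q (log2 -0.89 ± 0.11, adjusted p = 5.7e-07). It shares 302 of 743 exon bases with LARP7 on the opposite strand, and mature miRNAs were not measured. The endopeptidase gene MME (log2 -1.05), RPL22L1, a paralog of the ribosomal protein gene RPL22 (log2 -0.78), and GOLIM4, a Golgi membrane protein gene (log2 -0.74), were also among the largest falls. All 3 lie on chromosome 3, and each fell by more than any window median of that chromosome. H1-4, RBM15-AS1, BCLAF1P2 and PHLDB2 lost their calls without WT replicate 3, and TUNAR without R227Q replicate 1.

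Among genes at 100 CPM or more the changes were smaller and tighter. NQO1, a quinone reductase, was at 112.1, 113.3 and 115.6 CPM in WT and at 156.6, 163.7 and 161.0 CPM in R227Q, 1.39-fold higher (adjusted p = 3.5e-09). SNHG32, a host transcript of small nucleolar RNAs, rose from 157.0, 158.3 and 158.9 CPM to 207.1, 225.5 and 227.2 CPM. GPC3, a cell-surface glypican, lies on X near its far end, outside the low windows, and rose by 0.47 on the log2 scale. The rises of ZFAND5, NPW and NME3 were 0.45, 0.42 and 0.40, and for ZFAND5 and NPW the groups overlapped in CPM and separated only within a submission. MT-CO1, of mitochondrial DNA, and MTCO1P12, a nuclear pseudogene copy of it that can take its reads, rose by 0.50 and 0.57. TFRC, the transferrin receptor on chromosome 3, was at 145.6, 147.4 and 147.4 CPM in WT and at 93.6, 86.6 and 92.8 CPM in R227Q (log2 -0.69 ± 0.05, adjusted p = 2e-11). TMSB4X, the actin-sequestering thymosin beta-4 gene in the low part of X, fell from 1559, 1547 and 1388 CPM to 1029, 948.1 and 1013 CPM. DANCR, a long non-coding RNA on chromosome 4, fell from 348.7, 368.6 and 307.1 CPM to 257.7, 208.4 and 204.6 CPM (adjusted p = 3.1e-10).

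Of 2987 long non-coding RNAs tested, 202 were higher (6.76%) and 71 lower (2.38%), with a median of 0.08, against 1012 higher and 1559 lower of 13006 protein-coding genes, with a median of -0.01. Long non-coding RNAs are rarer, and the comparison depended on abundance. Between 1 and 5 CPM, 5.01% of 1637 long non-coding RNAs were higher and 1.16% lower, against 8.66% and 2.16% of 1941 protein-coding genes. At 5 to 20, 20 to 100 and 100 CPM and over, 11.5%, 16% and 23.1% of long non-coding RNAs were higher. The protein-coding shares there were 7.68%, 7.51% and 8.48%. Lower in these classes were 3.93%, 13.7% and 20.5% of long non-coding RNAs, against 5.41%, 15.6% and 30.4% of protein-coding genes. RMST, a neural long non-coding RNA, was at 1.85, 2.41 and 0.77 CPM in WT and at 4.68, 2.13 and 3 CPM in R227Q; the groups overlapped, and the rise was 1.29 on the log2 scale within submissions (adjusted p = 9.3e-05). MIR100HG fell by 1.05 on the log2 scale, from 4.31, 4.43 and 5.97 CPM to 2.28, 2.93 and 2.55 CPM. TERC, the telomerase RNA gene of chromosome 3, was at 1.62, 2.02 and 2.08 CPM in WT and at 0.57, 0.36 and 0.73 CPM in R227Q (log2 -1.81 ± 0.34). This RNA has no regular poly(A) tail, and the libraries were made by poly(A) capture. The calls of NALT1, NR2F2-AS1, MAP3K14-AS1, TMEM254-AS1 and ZNF516-AS1 were each lost without at least 1 library.

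Gene groups of protein synthesis and folding are read against genes of like abundance. Among genes outside chromosomes 3 and X at 100 CPM and over, 24.6% were lower and 10.4% higher, and among rarer genes 5.78% were lower and 7.64% higher. Cytosolic heat shock chaperones had 11 of 21 members lower and 0 higher, none of them on chromosomes 3 or X, with a median of -0.16 against 0.00 for all genes. Of their 11 members at 100 CPM and over, 8 were lower (72.7%). HSPA8, the constitutive HSP70, was at 638.6, 647.6 and 492.9 CPM in WT and at 505.2, 372.7 and 369.9 CPM in R227Q (log2 -0.39 ± 0.04, adjusted p = 1.7e-08). The difference was -0.35 in SDKYMR and -0.41 in 4LJFHN. HSPH1, an HSP110 nucleotide exchange factor, fell by 0.37 on the log2 scale, and AHSA1, which stimulates the HSP90 ATPase, by 0.26. The summed level of the list was 10180, 10150 and 10320 CPM in WT and 9506, 9270 and 9268 CPM in R227Q, with no overlap. CCT6A, of the CCT chaperonin, fell by 0.23, as 1 of 4 lower members of 14 chaperonin and prefoldin genes. Proteasome subunits at 100 CPM and over were lower in 4 of 27 cases (14.8%), under the share of all such genes. Of 15 rarer subunits, 3 were lower (20%) and 3 higher (20%), above the shares of all rarer genes. In all, 9 of 45 members were lower, 7 of them outside chromosomes 3 and X, and 4 were higher, among them PSME1 of the proteasome activator (log2 0.33); without WT replicate 3, 4 were lower and 1 higher, and without R227Q replicate 1, 5 and 4. Of the chaperonin genes, 1 was lower without WT replicate 3 and 2 without R227Q replicate 1 or 2.

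Nucleolar ribosome biogenesis had 19 of 40 members lower and 0 higher, and 16 of 37 lower outside chromosomes 3 and X, with a median of -0.15 there. Here the rarer members were called lower about as often as the abundant ones, at 11 of 23 under 100 CPM and 5 of 14 at 100 CPM and over. NOP16 was at 97.1, 100.4 and 63.1 CPM in WT and at 77.8, 49.9 and 53.5 CPM in R227Q; the groups overlapped across submissions but not within them (log2 -0.33 ± 0.05, adjusted p = 2.5e-05). Nucleolin (NCL) fell by 0.21 and GNL3, on chromosome 3, by 0.32. Translation initiation factors had 15 of 35 lower and 2 higher, and 11 of 30 lower elsewhere, with 10 of 23 lower (43.5%) at 100 CPM and over. EIF1AX, on the low part of X, fell from 305.7, 304.5 and 304.9 CPM to 214.1, 228.4 and 213.6 CPM, EIF2S3, also on X, by 0.31, and EIF5, on chromosome 14, by 0.30. Spliceosome and SR protein genes had 12 of 43 lower, none on chromosomes 3 or X, and 0 higher. At 100 CPM and over 29.4% of 34 were lower, near the 24.6% of all such genes. Under 100 CPM, 2 of 9 were lower (22.2%), against 5.78% of all such genes. SRSF2 fell from 593.3, 597.1 and 577.7 CPM to 470.2, 454.5 and 458.1 CPM (adjusted p = 4.1e-08). Of 19 small nucleolar RNA host genes, none on chromosomes 3 or X, 6 were higher and 3 lower. At 100 CPM and over, 5 of 11 were higher (45.5%) and 2 lower (18.2%), against 10.4% and 24.6% of all such genes. Of 8 rarer ones, 1 was higher and 1 lower (12.5% each), against 7.64% and 5.78%. In every fit without 1 library, 4 higher and 2 lower calls held. SNHG32 rose, while SNHG16 and SNHG3 fell by 0.35 and 0.31 on the log2 scale. SNHG3 shares exon bases with RCC1 on the same strand.

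Genes of the cytoskeleton and of cell division were read in the same way. Of members outside chromosomes 3 and X at 100 CPM and over, 62.5% of 16 actin genes, 64.3% of 14 tubulin and microtubule genes and 58.8% of 17 mitosis genes were lower, against 25% of 12 DNA replication genes, which is near the share of all such genes. Under 100 CPM, 12.5% of 16 actin, 20% of 20 tubulin and microtubule, 19.4% of 31 mitosis and 17.2% of 29 replication genes were lower. The share of all such rarer genes was 5.78%. Of 35 actin cytoskeleton and SRF-YAP target genes, 14 were lower and 0 higher, and 12 of 32 were lower outside chromosomes 3 and X. ACTB was at 5616, 5568 and 2525 CPM in WT and at 4623, 2043 and 2105 CPM in R227Q. The submissions differed by more than the groups, and the fall was -0.27 in SDKYMR and -0.28 in 4LJFHN (adjusted p = 2.9e-07). ACTG1 fell by 0.29 and CNN3, an actin-binding calponin, by 0.42. Of 37 tubulin and microtubule genes, 14 were lower and 3 higher, and 13 of 34 were lower elsewhere. The lower ones were mostly tubulins, such as TUBA1C (log2 -0.34) and TUBB4B (log2 -0.29), and TUBB3 of the neuronal marker list (log2 -0.17). The 3 higher ones were the neuronal microtubule-associated genes MAPT, MAP2 and MAP6 (log2 0.50, 0.39 and 0.54), none of which was called without R227Q replicate 1. Of 11 tested neuronal or kidney markers, 1 was higher (9.09%) and 2 lower (18.2%), against 7.5% and 9.91% of all genes tested. None of these marker calls held in every fit without 1 library. Mitosis and kinetochore genes had 18 of 51 lower and 2 higher, and 16 of 48 lower elsewhere, with summed levels of 6157, 6188 and 6187 CPM in WT and 5720, 5698 and 5716 CPM in R227Q. CCNB1, the mitotic cyclin B1, fell from 283.2, 284.8 and 294.3 CPM to 236.2, 228.8 and 244.0 CPM. KIF20A, a mitotic kinesin, fell by 0.35 and ECT2, a cytokinesis exchange factor on chromosome 3, by 0.41. DNA replication genes had 10 of 44 lower and 2 higher, and 8 of 41 lower elsewhere, with a median of -0.02 there and with MCM5 at -0.32 and MCM2, on chromosome 3, at -0.27. In bulk samples a change in the share of cells in a phase and a change per cell cannot be told apart.

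The counts of these groups depended on WT replicate 3. Without it the lower members called were 5 chaperones, 8 nucleolar genes, 4 initiation factors, 5 spliceosome genes, 9 actin genes, 9 tubulin-list genes, 11 mitosis genes and 3 replication genes. In that fit the R227Q difference rests on R227Q replicate 1 against WT replicates 1 and 2. Without R227Q replicate 1 they were 7, 13, 8, 5, 8, 7, 10 and 4, and replication genes also fell to 5 without WT replicate 1 and to 4 without R227Q replicate 2. With upper-quartile factors they were 10, 16, 12, 8, 10, 12, 16 and 4.

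**Figure D4:**
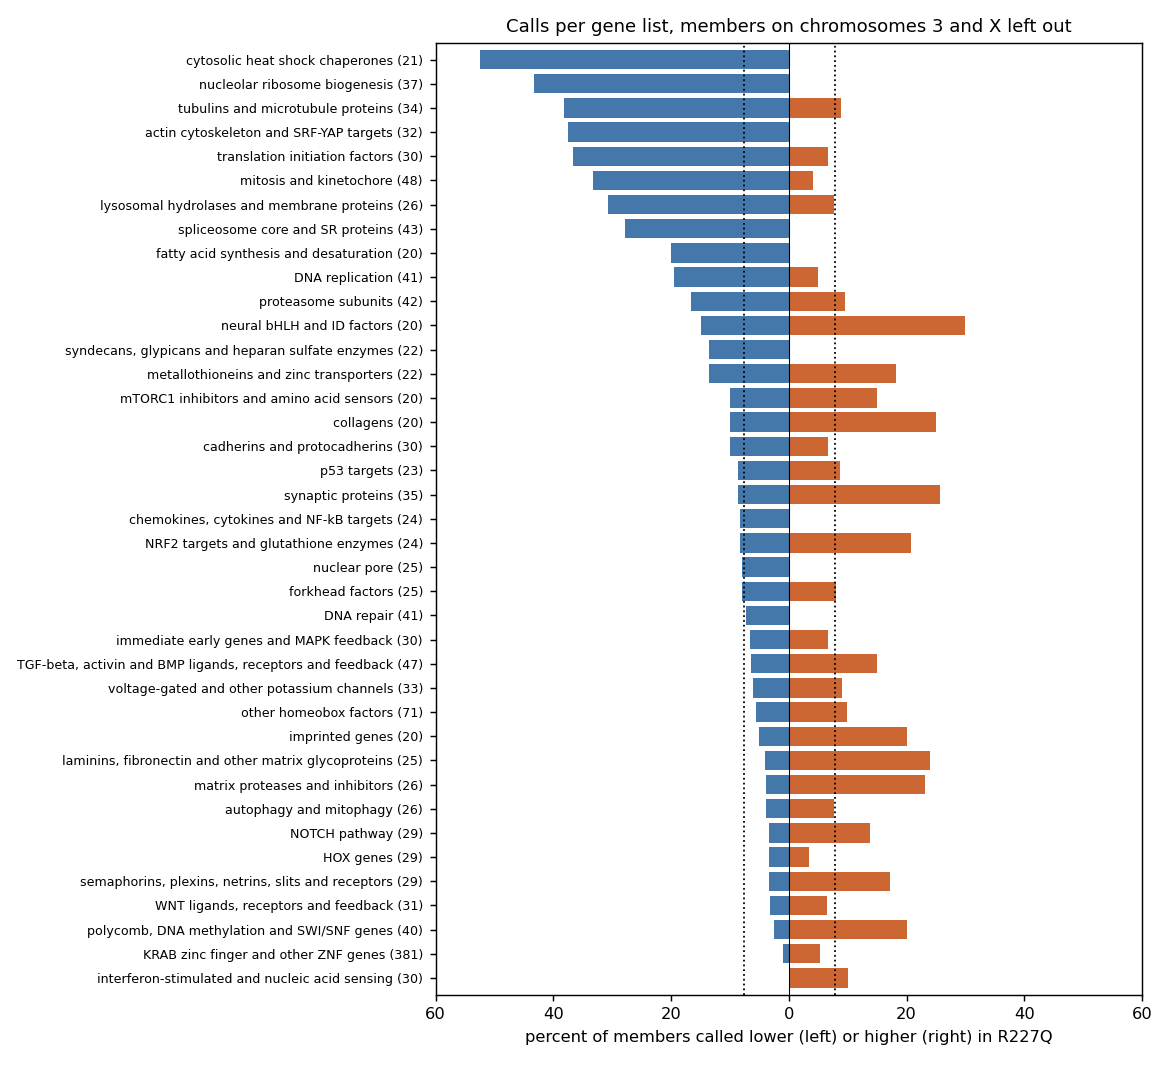
Percent of tested members called lower (left) and higher (right) in R227Q for the 39 gene lists with at least 20 tested members outside chromosomes 3 and X; the number of such members stands in parentheses, and dotted lines mark all genes tested there (7.65% lower, 7.91% higher). Heat shock chaperones, nucleolar, microtubule, actin and initiation factor genes reach farthest to the left, and neural helix-loop-helix factors, synaptic proteins and collagens farthest to the right. The dotted lines pool genes of every abundance. Of these genes, 24.6% at 100 CPM and over were lower, against 5.78% of rarer ones, so lists of abundant genes are not matched by the lines.

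In membranes and traffic, several counts rested on chromosomes 3 and X. Of all genes tested, 9.91% were lower and 7.5% higher, and outside those chromosomes 7.65% and 7.91%. COPI and COPII coat genes had 7 of 20 lower, but 3 of 16 elsewhere: ARF4, COPB2 and SEC13, at -0.41, -0.42 and -0.26, all lie on chromosome 3. Both lower V-ATPase genes of 21, ATP6V1A and ATP6AP2, lie on chromosomes 3 and X. So do FUNDC1 and ATG3, the largest falls among 31 autophagy genes, of which 4 were lower in all and 1 elsewhere. Purine and pyrimidine synthesis had 9 of 24 lower, and 5 of 18 elsewhere; PRPS2 (X), GMPS and UMPS (both chromosome 3) were at -0.39, -0.34 and -0.35. Lysosomal genes had 8 of 26 lower and 2 higher outside those chromosomes. CTSC, the protease cathepsin C on chromosome 11, was at 64.2, 62.6 and 66.3 CPM in WT and at 45.5, 37.5 and 40.3 CPM in R227Q, 1.55-fold lower (adjusted p = 1.2e-08), and CTSL, cathepsin L, fell by 0.32. GAA, acid alpha-glucosidase, rose by 0.40, with no overlap between groups. Without WT replicate 3 the lower calls in these lists fell to 3 coat genes, 5 purine and pyrimidine genes, 4 lysosomal and 2 autophagy genes, and without R227Q replicate 1 to 5 purine and pyrimidine, 5 lysosomal and 2 autophagy genes.

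Metal, redox and lipid genes were called in small numbers, to be read beside 7.5% higher and 9.91% lower among all genes tested. Of 22 metallothionein and zinc transporter genes, none on chromosomes 3 or X, 4 were higher, all of them metallothioneins, which bind zinc and copper, and 3 lower, all of them zinc transporters, of which at most 1 was called in any fit without 1 library. MT2A was at 963.5, 966.7 and 1207 CPM in WT and at 1215, 1417 and 1448 CPM in R227Q (log2 0.28 ± 0.04, adjusted p = 1.3e-06); MT1M and MT1F rose by 0.38 and 0.28. Metallothionein genes are near-identical neighbours and may share reads. In iron handling, the ferritin light chain FTL rose by 0.22 with no overlap, in contrast to the fall of TFRC. Of 27 NRF2 target and glutathione genes, 5 were higher and 3 lower, or 5 and 2 of 24 outside chromosomes 3 and X, and the list's median was -0.03; 3 were higher and 0 lower without WT replicate 3, and 3 and 1 without R227Q replicate 1. Fatty acid synthesis and desaturation had 4 of 21 lower and 0 higher, and 2 lower without either of those libraries: ELOVL6, a fatty acid elongase, fell by 0.42 and SCD, a desaturase, by 0.27, beside falls of 0.74, 0.66 and 0.56 in the sterol genes HMGCS1, SQLE and MSMO1 and of 0.55 in INSIG1. Amino acid transporters had 7 of 21 higher, all outside chromosomes 3 and X, and 1 lower, SLC7A3 on X. SLC6A9, the glycine transporter GLYT1, was at 15.9, 18.0 and 15.4 CPM in WT and at 22.7, 22.5 and 25.9 CPM in R227Q (log2 0.52 ± 0.09, adjusted p = 0.00016), and SLC38A2 rose by 0.26. Without WT replicate 3, 2 transporters were called higher, and without R227Q replicate 1, 3.

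Genes of signalling and development were mostly expressed at low levels. For all genes under 100 CPM outside chromosomes 3 and X, 7.64% were higher and 5.78% lower. Of 52 TGF-beta, activin and BMP genes, 7 were higher, all outside chromosomes 3 and X, and 4 lower, 3 of them outside, with a median of 0.00. Beside INHBE, the called ligands were GDF15 (log2 1.53), INHBB (log2 0.65), BMP7, and BMP2 and LEFTY1, whose calls were lost without WT replicate 3, and LTBP4, a latent TGF-beta binding protein, rose from 48.5, 46.8 and 68.3 CPM to 72.6, 106.9 and 106.5 CPM (adjusted p = 7.1e-10). BMP7 was at 0.62, 0.23 and 1.09 CPM in WT and at 2.69, 4.31 and 3.32 CPM in R227Q (adjusted p = 2.4e-06). ID1, a target gene of BMP signalling and an inhibitor of helix-loop-helix factors, was at 150.3, 154.5 and 124.8 CPM in WT and at 125.1, 101.5 and 98.9 CPM in R227Q (log2 -0.31 ± 0.05, adjusted p = 1.8e-05). Of 22 neural helix-loop-helix and ID genes, 6 were higher and 3 lower, among them OLIG2 at 0.87; ID1 was one of the lower, and 3 were higher and 1 lower without WT replicate 3. Of 42 synaptic genes, 9 were higher and 4 lower, or 9 and 3 of 35 outside chromosomes 3 and X, and without WT replicate 3 the 9 became 1 and the 4 became 2. Of 18 calcium and sodium channel genes, 3 were higher and 2 lower, or 3 and 0 of 16 outside chromosomes 3 and X. Among them, SCN9A was at 1.00, 0.70 and 0.72 CPM in WT and 2.85, 2.40 and 2.59 CPM in R227Q. Of 35 genes in the potassium channel list, 3 were higher and 3 lower, or 3 and 2 of 33 outside those chromosomes. KCNMB2, on chromosome 3, was at 2.66, 3.22 and 3.39 CPM in WT and 0.61, 0.49 and 0.93 CPM in R227Q. It shares exon bases with an unnamed gene on the same strand. Only the calls of SCN9A and KCNMB2 in these lists held in every fit without 1 library.

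Matrix glycoproteins had 6 of 26 higher and 1 lower, with SPARC and FBN2 each at 0.38 and THBS2 at -0.43. Among all genes tested, 7.5% were higher and 9.91% lower. Collagens had 6 of 23 higher and 2 lower, or 5 and 2 of 20 outside chromosomes 3 and X, with COL27A1 at 0.47. Matrix proteases had 6 of 29 higher and 2 lower, or 6 and 1 of 26 outside them, with ADAMTS7 at 0.76, from 14.1, 14.4 and 15.7 CPM to 22.5, 29.3 and 28.7 CPM. The higher calls fell to 3 glycoproteins and 1 collagen without WT replicate 3, and to 2 glycoproteins, 3 collagens and 2 proteases without R227Q replicate 1. Integrins had 4 of 16 lower and 1 higher, or 3 and 1 of 14 outside chromosomes 3 and X: ITGA6 (log2 -0.50) and ITGB1 (log2 -0.30) fell, as did ITGB5 on chromosome 3 (log2 -0.47). The WNT antagonists SFRP1 and NOTUM rose by 0.43 and 0.45 as the only higher members of 33 WNT genes. In the immediate early list, EGR1 was at 12.8, 12.4 and 9.95 CPM in WT and at 18.7, 16.7 and 16.7 CPM in R227Q (log2 0.64 ± 0.10, adjusted p = 1.6e-05), and PHLDA1 rose by 0.52, with 2 of 31 members higher and 2 lower. Of 21 genes of mTORC1 inhibition and amino acid sensing, 3 were higher and 2 lower, with a median of -0.05; DDIT4 rose by 0.58 and SESN2 by 0.33, and CASTOR2 fell by 0.34 on the log2 scale, a call lost without WT replicate 3. Of 25 p53 targets, 2 were higher, SESN2 among them, and 3 lower, 2 of them outside chromosomes 3 and X, with ZMAT3 on chromosome 3 at -0.43 and CCNG1 at -0.23. Zinc finger genes were called rarely: 22 of 406 were higher and 8 lower, or 20 and 4 of 381 outside chromosomes 3 and X, with 5 higher without WT replicate 3 and 6 without R227Q replicate 1. ZNF462, at 0.39, was the only one called higher in each fit that left out 1 library. Of 17 BCL2 family genes 1 was called, higher (5.88%), and of 30 interferon and nucleic acid sensing genes 3 were higher (10%). Together with the WNT (6.06%) and immediate early lists (6.45%), these higher shares lay near the 7.5% of all genes.

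Promoters of 3 called genes show letters that stress and sterol factors are known to bind, and are printed as examples. Whether such factors act on these genes here was not tested. All 3 genes were chosen after their values were seen. ASNS, asparagine synthetase, was at 58.5, 58.1 and 63.9 CPM in WT and at 86.8, 92.5 and 94.7 CPM in R227Q (log2 0.55 ± 0.05, adjusted p = 3e-09), and shares exon bases with an unnamed gene on the same strand. CHAC1, which degrades glutathione, was at 13.6, 14.4 and 6.24 CPM in WT and at 24.8, 14.7 and 11.5 CPM in R227Q; the groups overlapped, and the rise was 0.88 ± 0.11 within submissions (adjusted p = 5.1e-07). SREBF2, the sterol-responsive factor of cholesterol genes, fell by 0.30 ± 0.05 (adjusted p = 0.00017). The sequences, credited to RefSeq on GRCh38.p14, run 5′ to 3′ on the gene's strand from 250 bases before to 50 bases after the start, and capitals mark the motif found.
ASNS, chr7:97872359-97872658, minus strand: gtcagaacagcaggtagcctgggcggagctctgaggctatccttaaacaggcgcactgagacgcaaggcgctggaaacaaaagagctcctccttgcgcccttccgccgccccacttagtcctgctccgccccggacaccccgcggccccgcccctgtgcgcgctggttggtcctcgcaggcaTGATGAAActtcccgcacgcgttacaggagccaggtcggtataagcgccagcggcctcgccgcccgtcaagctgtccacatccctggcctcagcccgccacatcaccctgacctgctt
CHAC1, chr15:40953221-40953520, plus strand: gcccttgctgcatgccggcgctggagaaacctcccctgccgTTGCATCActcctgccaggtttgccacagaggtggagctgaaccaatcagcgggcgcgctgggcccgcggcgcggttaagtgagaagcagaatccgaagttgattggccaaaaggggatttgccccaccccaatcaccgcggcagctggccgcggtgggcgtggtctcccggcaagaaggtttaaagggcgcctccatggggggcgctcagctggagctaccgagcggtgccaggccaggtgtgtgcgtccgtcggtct
SREBF2, chr22:41832855-41833154, plus strand: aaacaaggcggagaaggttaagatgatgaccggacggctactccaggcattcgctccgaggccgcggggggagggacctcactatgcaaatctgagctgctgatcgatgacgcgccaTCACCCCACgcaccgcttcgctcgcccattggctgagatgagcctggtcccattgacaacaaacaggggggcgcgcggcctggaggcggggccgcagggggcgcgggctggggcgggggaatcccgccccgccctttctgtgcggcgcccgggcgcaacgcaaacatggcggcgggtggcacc

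In ASNS and CHAC1 the capitals mark TGATGNAA, the core of the C/EBP-ATF response element, which lies on the opposite strand in CHAC1. In SREBF2 they mark TCACNCCAC, a sterol response element. Searched on both strands in the 11158 tested genes with a promoter entry, TGATGNAA was present in 1.61% of all, in 16 of 866 promoters of higher genes (1.85%), in 21 of 1312 of lower genes (1.6%) and in 8 of 210 of genes higher by at least 1.5-fold (3.81%). TCACNCCAC was present in 1.05% of all, in 23 of 1312 promoters of lower genes (1.75%) and in 6 of 866 of higher genes (0.693%). At 1.5-fold or more it was in 2 of 65 promoters of lower genes (3.08%) and 2 of 210 of higher genes (0.952%). The antioxidant response element TGACNNNGC was in 15.1% of all and in 14.8% of genes higher by at least 1.5-fold. The cAMP response element TGACGTCA was in 3.4% of all, in 2.54% of higher and in 4.27% of lower genes. At 1.5-fold or more it was in 3 of 210 promoters of higher genes (1.43%) and 4 of 65 of lower genes (6.15%). These shares describe letters in a fixed window, and the groups they describe were set by the same contrast.

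R227Q and H448L libraries were compared directly to see where the R227Q profile departs from that of another variant. Only 35 genes were called (0.207% of those tested), 21 higher in R227Q and 14 lower, and 29 of them were also called between R227Q and WT. CRABP1 was at 9.71, 7.94 and 10.4 CPM in H448L, between WT and R227Q, and the log2 difference of H448L minus R227Q was -0.90 (adjusted p = 8.1e-05). ASS1 was at 85.5, 88.6 and 90.8 CPM in H448L (log2 -0.26, adjusted p = 0.02) and NQO1 at 140.3, 137.1 and 141.5 CPM (log2 -0.23, adjusted p = 0.014), again between the other groups. MT1F, at 185.0, 173.7 and 163.1 CPM in H448L, overlapped WT and lay below every R227Q library (log2 -0.29, adjusted p = 0.0021). MT1M, MT2A, RAB26 and PHLDA2, an imprinted gene that restrains placental growth, were likewise higher in R227Q.

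On the lower side, ANXA1 was at 35.3, 36.0 and 36.4 CPM in H448L, above each R227Q library (log2 0.53, adjusted p = 0.00039). RPL22L1 was at 163.2, 159.9 and 178.1 CPM in H448L, between R227Q and WT (log2 0.41, adjusted p = 5.4e-05). EIF3A, of the initiation factor eIF3, was at 194.1, 179.9 and 241.1 CPM in WT, at 151.9, 185.0 and 169.0 CPM in R227Q and at 217.2, 211.7 and 254.2 CPM in H448L (log2 0.33, adjusted p = 0.0047). R227Q minus WT for EIF3A was -0.39 ± 0.06. All H448L libraries belong to 4LJFHN, so this contrast rests mainly on R227Q replicates 2 and 3.

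**Figure D5:**
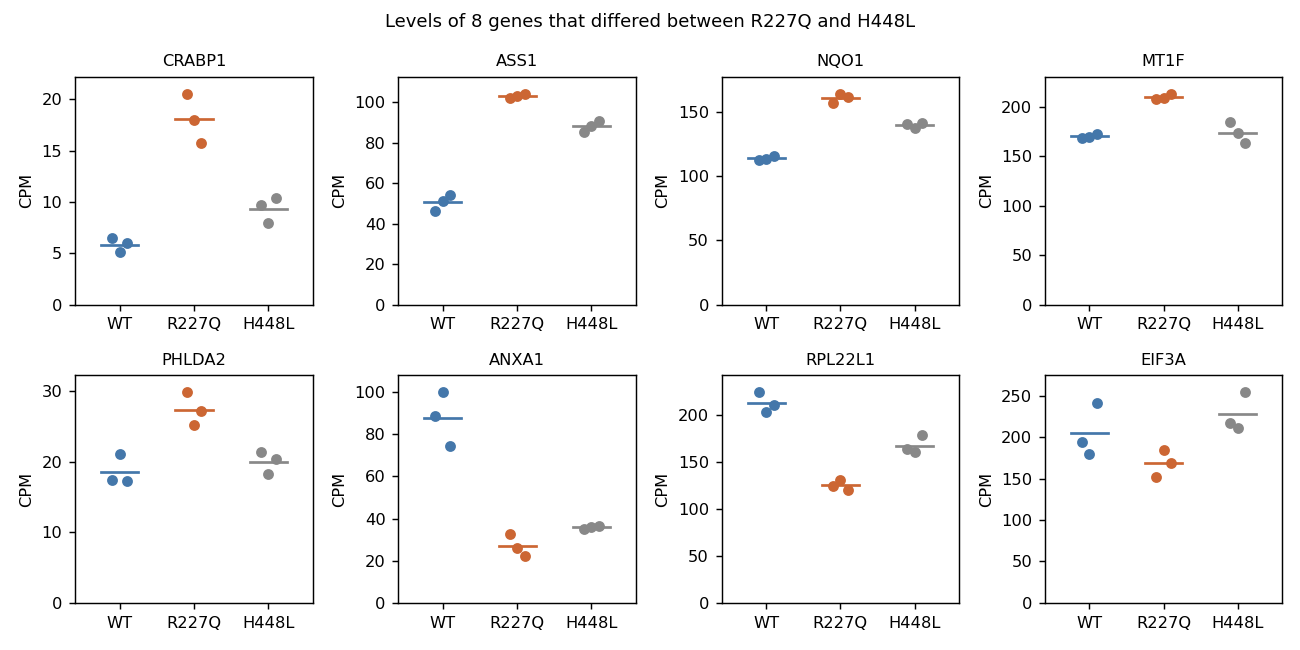
CPM (axis from 0) of 8 genes in the 3 WT, 3 R227Q and 3 H448L libraries; points are libraries and bars group means. H448L lies between WT and R227Q for CRABP1, ASS1, NQO1, ANXA1 and RPL22L1, and beside WT for MT1F, PHLDA2 and EIF3A.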

How the data were processed

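RNA from Hap1 lysates was captured by poly(A), converted to tagmented cDNA and sequenced by a service provider, per the labels' protocols. The authors' deposited tables give for each of 78986 entries an estimated count, which need not be whole, and a CPM value per library; CPM equals the count per 1000000 counts of that library. The submitters' processing notes name GRCh38; the sources used here do not give the aligner, the counter, the annotation or whether strand was used. All 6 libraries' columns, and the 3 H448L ones, were matched to samples through the column names in the labels. ERCC control rows (92) were dropped, and estimated counts were rounded to whole numbers for testing.

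Genes were kept by edgeR's default expression filter, with TMM factors. The test was edgeR's quasi-likelihood test (edgeR 4.0.16, R 4.3.3) on all 9 libraries with group and submission as terms, and Benjamini-Hochberg adjustment over the 16908 genes tested; calls are at an adjusted p under 0.05, and a log2 difference is R227Q minus WT with its SE. Simple differences per submission used log2 CPM with a prior count of 2. DESeq2 1.42.0 and limma 3.58.1 gave alternatives. On simulated counts of 16667 genes for R227Q against WT, edgeR recovered 58.2% of genes changed by 0.3 on the log2 scale, 83.6% at 0.5 and 100% at 1.0, and 13 of 174 calls were false. The changed genes were drawn only from the more abundant ones, and every gene was given the same spread. Far fewer genes were changed than were called in the data. These rates therefore do not cover rare genes.

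Genes named in the text were drawn by a rule, and not every gene that met it is named. It took SARS2 and the 20 largest rises and falls among called genes with a mean of at least 5 CPM over the 6 libraries. Added to these were the 8 largest of each at 100 CPM or more and 5 long non-coding RNAs of each at 1 CPM or more. From each of 63 lists it took the 3 called members with the smallest p. Left out of the text were the falls of LINC01945, LINC00222, CYTOR, PRR11 and BHLHE40-AS1 (log2 -0.98, -0.88, -0.71, -0.54 and -1.70). Members of several lists, such as the forkhead and nuclear pore lists, were also left out. The members and lists were chosen with earlier results of these data known. Outside that rule, AKR1C3, ASNS, BMP2, BMP7, CHAC1, EIF3A, ENSG00000253321, HR, ID1, INHBB, LEFTY1, MAP6, MAPT and SREBF2 were chosen after their values were seen, and windows along chromosomes and motifs were likewise added afterwards. Gene positions came from GENCODE on GRCh38, with 57342 of 78894 genes matched, and promoters from RefSeq, matched by symbol. Overlaps of exons were listed where the partner reached 10% of the gene's CPM. Replicate numbers were not used as pairs, because same-numbered libraries correlated at 0.66, -0.56 and 0.66 after group means, following submission, and at -0.40, 0.12 and -0.39 after submission was removed.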

Additional observations from a re-analysis of the deposited data

Results flagged for a closer look

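Of the 35 genes whose R227Q level differed from H448L in the direct edgeR contrast, at an adjusted p under 0.05 over all genes, the 12 that belong to the genes described above are given with the log2 difference of H448L minus R227Q. The other 23 include larger differences, such as HR at -0.92 and the unnamed gene ENSG00000253321 at 4.14, which was under 1 CPM in every WT and R227Q library and at 1.87, 3.23 and 3.43 CPM in H448L. CRABP1 stood at -0.90, RAB26 at -0.57, PHLDA2 at -0.40, MT1F at -0.29, MT1M at -0.27, ASS1 at -0.26, ID1 at -0.24, NQO1 at -0.23 and MT2A at -0.16, all higher in R227Q. EIF3A at 0.33, RPL22L1 at 0.41 and ANXA1 at 0.53 were lower in R227Q. The 3 H448L libraries belong to submission 4LJFHN, and no value of these differences within SDKYMR exists.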

How the results depend on the processing

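The counts of genes called higher and lower (1268 and 1676) moved by more than 1.5 times with DESeq2 (506 and 1040), with no submission term (165 and 147) and with submission 4LJFHN alone (483 and 655). The fits that left out 1 library gave 404 to 1131 higher and 689 to 1468 lower; the lowest of both came without WT replicate 3, the only WT library of 4LJFHN, and the next without R227Q replicate 1. The fit with a replicate block and the submission term gave 1150 and 1519, upper-quartile factors 1565 and 1335, and a refit without the genes of chromosomes 3 and X, added after seeing the data, 1049 and 1313. Of genes called in one submission and read in the other, the share with the same sign was 96.6%, against 94.5% at an absolute log2 difference of at least 0.5 and 98.1% with the submissions exchanged. The direct contrast of H448L with R227Q and the interaction with submission kept their counts within 1.5 times. Of 144 called genes followed by name, 141 kept the call in each fit without 1 library, 66 lost it with no submission term, and 0 changed sign. Genes reported above to lose their calls, such as NR2E3 and TUNAR, are not among the 144. Their counts therefore do not stand for all calls: of the 2944 genes called, 592 were kept in all fits without 1 library. Of 208 recomputed list medians, 77 moved by more than the standard deviation of the list's median over the R227Q libraries. The other sign was seen in 9, all in the TGF-beta and NRF2 lists, whose medians are near 0. Depth limits the rare genes: 1 count is worth 0.077 to 0.0905 CPM, and intervals cover counting error and the spread between these libraries only.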

Other observations

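Of 33 tested genes of mitochondrial DNA, 11 were higher (33.3%) and 6 lower (18.2%), and of 15 unprocessed pseudogenes, 6 were higher (40%) and 0 lower. Among all genes tested, 7.5% were higher and 9.91% lower. Nuclear copies such as MTCO1P12 can take reads of mitochondrial genes, so these counts may not be separate. ERCC control sequences, which the labels do not mention, were read at 2 to 18 counts per library, between 0.362 and 0.847 counts per 1000000 gene counts in WT and between 0.162 and 1.47 in R227Q, so that the groups overlapped. Haematopoietic markers summed to 77.1 to 262.0 CPM in WT and 74.6 to 265.0 CPM in R227Q, a spread that followed submission in both groups.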
